A study of Arabidopsis thaliana with 4 samples.

Results

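The genes described here are 49 Arabidopsis thaliana loci whose log2 ratio between apetala1 and wild-type inflorescences was -0.4 or less on each of 4 arrays. They were chosen by that value. A named gene is a locus to which the platform annotation assigns at least 1 probe and no other gene, its probes were averaged per array, and values at the deposited limits of plus or minus log2(100) were left out. Of 5051 named genes with a value on all 4 arrays, 50, or 0.990%, met the threshold, and AT3G19710 was left out by the rule, which left 49. A log2 ratio of -0.4 is a difference of 1.32-fold between the RNAs of an array.

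Each array received RNA from both genotypes, labelled apetala1 and wild-type, in 2 channels. The labels put apetala1 RNA in channel 1 on sets 1 and 3 and in channel 2 on sets 2 and 4, and the values of sets 2 and 4 were therefore multiplied by -1. Neither the labels nor the files state the allele, the genetic background, the age of the plants, any pooling or the dyes. They are also silent on whether different plants supplied each set, and the spread between arrays may be technical. The numerator of the ratio is unstated too. A negative value therefore has the sign of sets 1 and 3 as deposited, and neither genotype can be called higher.

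AP1, the product of APETALA1, belongs to the MADS-box transcription factors. It gives the floral meristem its identity and is needed for sepals and petals. Flowers of strong apetala1 mutants bear leaf-like organs in place of sepals, usually lack petals, and can form further flowers in the axils of the outer organs, so their inflorescences differ from wild type in the mixture of organs as well as within cells. In tissue mixtures of this kind, fewer cells of a type and less RNA per cell cannot be told apart. The values are ratios and give no level, so the presence of floral tissue could not be read from its markers. A list of 32 marker genes covered inflorescence meristem, floral organs, tapetum, pollen, ovule and green tissue. Of these, 5 were named genes with a value on all 4 arrays, and 0 of the 5 were among the 49. Among all named genes 0.990% met the threshold. Probes shared by several genes were not searched for the other markers. The tapetum genes SHT and ATA20 had means of -0.71 ± 0.88 and -0.30 ± 0.45 (SD, n = 4), with SHT at -1.80, -1.004, 0.17 and -0.19 on sets 1 to 4. The stem cell signal CLV3 had 0.17 ± 0.50, the ovule gene INO 0.17 ± 0.32 and the light-harvesting gene LHB1B2 -0.28 ± 0.81. Each of the 5 had arrays on both sides of 0. In LHB1B2 the sign followed channel order, with 0.58 and 0.15 on sets 1 and 3 and -0.59 and -1.26 on the turned sets 2 and 4. ATA20 was likewise above 0 on sets 1 and 3 and below 0 on sets 2 and 4. The part of the 5 markers in the values of the 49 genes was not tested.

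The 49 genes had mean log2 ratios from -2.03 to -0.51, with a median of -0.88, against a median of -0.03 over all 5051 named genes. The lowest mean corresponds to a 4.07-fold difference, the median to 1.84-fold and the highest to 1.43-fold. In 16 genes the mean was -1 or less, but 1 gene, AT2G02750, was at -1 or less on every array, which is 0.0198% of the named genes. The SD over the 4 arrays ran from 0.04 to 1.14 with a median of 0.29, against a median SD of 0.28 over all named genes. All 49 are protein-coding, 47 were measured by a single probe, and 46 have no symbol other than the locus in the gene table. Symbols were as scarce among all named genes, of which 89.8% have none, against 93.9% here. The protein families given below for loci without a symbol are general background on those genes, which the annotation used here does not hold, and 17 genes for which no family is given are named by locus alone.

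**Figure D1:**
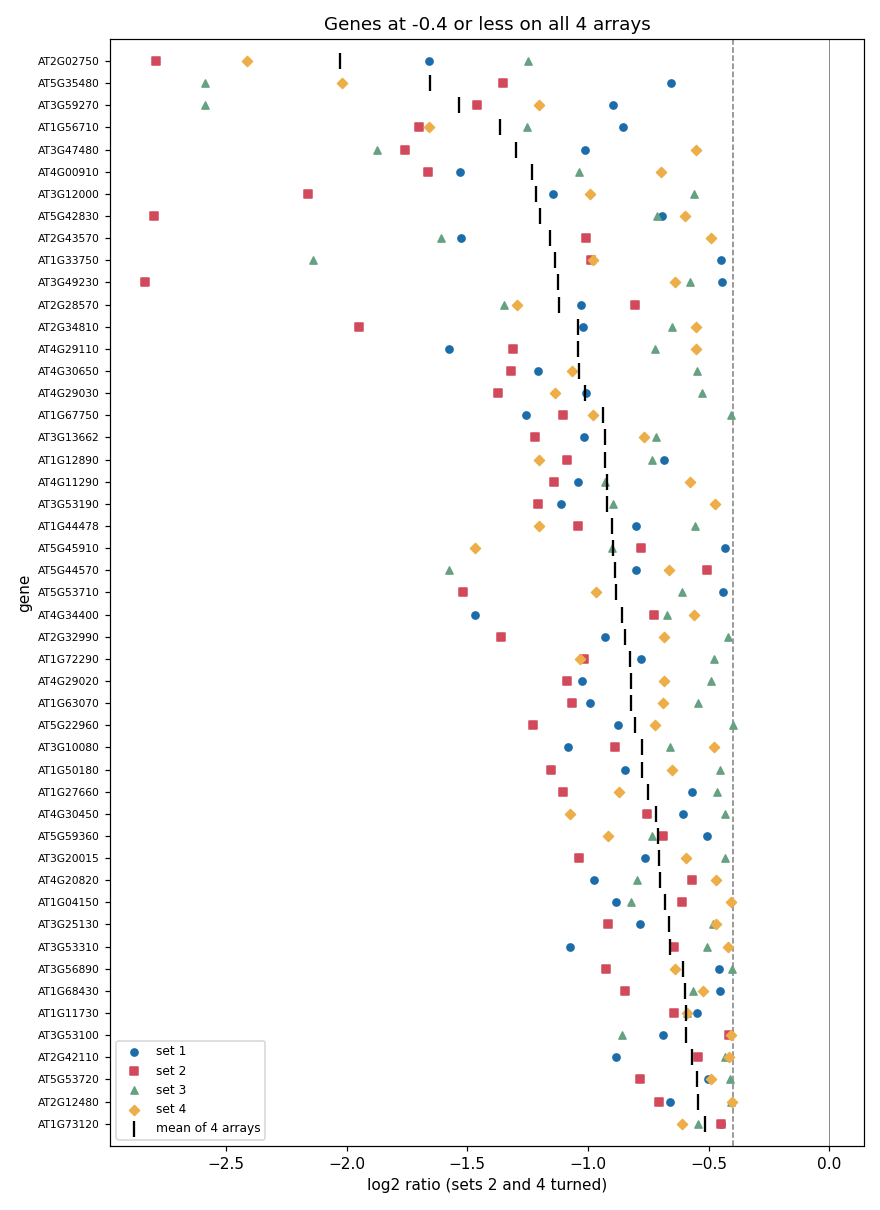
Log2 ratio (horizontal axis, sets 2 and 4 turned) of each of the 49 genes on sets 1 to 4 (coloured symbols) with the mean of the 4 arrays (vertical tick), ordered by the mean. The dashed line is the threshold of -0.4. The means run from -2.03 for AT2G02750 to -0.51 for AT1G73120, and set 2 gives the lowest value in 26 of the 49 genes.

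The gene farthest from 0 was AT2G02750, which encodes a pentatricopeptide repeat protein, a family of RNA-binding proteins that act mostly on transcripts of chloroplasts and mitochondria. Its log2 ratios on sets 1 to 4 were -1.66, -2.79, -1.25 and -2.41, a mean of -2.03 ± 0.70 (SD, n = 4). The values were lower on sets 2 and 4, of one channel order, than on sets 1 and 3. AT1G63070, the other pentatricopeptide repeat gene, had -0.99, -1.07, -0.54 and -0.69, with a mean of -0.82 ± 0.25. Its 4 values lay closer together, and even its lowest, on set 2, did not reach the highest value of AT2G02750, on set 3.

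Among the 49 were 6 genes for enzymes of cell wall material, with means from -1.37 to -0.59 and a median of -0.92. The cell wall is built of cellulose, pectins and other polysaccharides, and growing organs cut and relink these polymers. This grouping, like those that follow, was made after the members were known, and the measured genes of each family were not counted. A list of cell wall genes matched by symbol had 15 measured genes, with a median of 0.20 and means above 0 in all but 4. It held 0 of the 49, where 0.990% of all named genes met the threshold, and its symbols did not take in GH9B8, which is among the 6 genes. The 6 genes cannot be taken to speak for the cell wall, which was not tested. AT1G56710, of the polygalacturonase family of pectin-cutting enzymes, had log2 ratios of -0.85, -1.70, -1.25 and -1.66 and a mean of -1.37 ± 0.40, the fourth lowest of the 49 genes. The pectate lyase AT1G67750, which cuts de-esterified pectin, had -1.26, -1.10, -0.41 and -0.98 on sets 1 to 4. A second member of the pectate lyase family, AT3G53190, had -1.11, -1.21, -0.89 and -0.47. These pectin genes had means of -0.94 ± 0.37 and -0.92 ± 0.33, and each came near the threshold on 1 array, set 3 for AT1G67750 and set 4 for AT3G53190.

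GH9B8 (AT2G32990), a glycosyl hydrolase of family 9 as are the plant endoglucanases, had -0.93, -1.36, -0.42 and -0.69 and a mean of -0.85 ± 0.40. The peroxidase gene AT4G11290, of the secreted class that couples phenolics in cell walls, was measured by 2 probes and had a gene mean of -0.92 ± 0.25. Its probes gave means of -1.33 and -0.51, and the weaker probe reached -0.15 on set 4, so 1 probe alone would not have met the threshold there. AT1G11730, of the galactosyltransferase family that decorates cell surface glycans, had -0.55, -0.65, -0.59 and -0.59 and a mean of -0.59. Its SD of 0.04 was the smallest of the 49 genes.

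A further 12 genes encode metabolic, proteolytic or secreted proteins, with means from -1.20 to -0.54 and a median of -0.86. AT5G42830, of the BAHD-type acyltransferases, which transfer acyl groups to alcohols and amines, had -0.69, -2.80, -0.71 and -0.60. Its mean of -1.20 ± 1.07 rests on set 2, since the other arrays lay between -0.71 and -0.60. The terpene synthase gene AT1G33750, of a family that makes volatile and other terpenes, had -0.45, -0.99, -2.14 and -0.98 and a mean of -1.14 ± 0.71. Here set 3 was far lower than the others and set 1 was close to the threshold. The gene listed as CHI (AT2G43570), which the gene table describes as a putative chitinase, had -1.53, -1.01, -1.61 and -0.49. It was most negative on sets 1 and 3, and its mean was -1.16 ± 0.52.

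Both berberine bridge enzyme-like genes of the list, flavin-dependent oxidases of the secretory pathway, were lower than the threshold by unequal amounts. AT2G34810 had -1.02, -1.95, -0.65 and -0.55, and AT4G20820 had -0.98, -0.57, -0.79 and -0.47. Their means were -1.04 ± 0.64 and -0.70 ± 0.23. The lowest array was set 2 for the first and set 1 for the second. A pair of GDSL-type lipase genes, a large family of secreted esterases, gave -0.43, -0.78, -0.90 and -1.47 for AT5G45910 and -0.69, -0.41, -0.86 and -0.41 for AT3G53100. AT5G45910 was most negative on set 4 and AT3G53100 on set 3, with means of -0.89 ± 0.43 and -0.59 ± 0.22.

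AT3G13662, of the dirigent family, which steers the coupling of phenolic radicals, had -1.02, -1.22, -0.72 and -0.77 and a mean of -0.93 ± 0.23. The germin-like cupin gene AT3G10080 had -1.08, -0.89, -0.66 and -0.48. The Kunitz-type protease inhibitor gene AT1G72290 had -0.78, -1.02, -0.48 and -1.03, and a mean of -0.83 ± 0.26 against -0.78 ± 0.26 for AT3G10080. Among the protease genes, AT3G20015, of the pepsin-like aspartyl proteases, had -0.76, -1.04, -0.43 and -0.59 and a mean of -0.71 ± 0.26. The serine carboxypeptidase-like gene SCPL43 (AT2G12480) had -0.66, -0.70, -0.41 and -0.40, and its mean of -0.54 ± 0.16 was the second highest of the 49 genes. Its values on sets 3 and 4 lay within 0.01 of the threshold.

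There were 4 genes of DNA-binding transcription factor families, with means from -0.93 to -0.66. AT1G12890, of the AP2/ERF family, had -0.68, -1.09, -0.73 and -1.20 and a mean of -0.93 ± 0.26. The B3-domain genes AT4G34400 and AT3G53310 had -1.47, -0.73, -0.67 and -0.56 and -1.08, -0.65, -0.51 and -0.42. In both, set 1 was the lowest array and set 4 the highest, and the means were -0.86 ± 0.41 and -0.66 ± 0.29. AT1G27660, of the basic helix-loop-helix family, had -0.57, -1.10, -0.47 and -0.87 and a mean of -0.75 ± 0.29.

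A group of 6 genes belongs to families of signalling, defence or membrane proteins, with means from -1.30 to -0.68 and a median of -1.12. AT3G47480 encodes an EF-hand protein, a calcium-binding type, and had -1.01, -1.76, -1.87 and -0.55, a mean of -1.30 ± 0.63. AT4G00910, of the aluminium-activated malate transporter family of anion channels, had -1.53, -1.66, -1.04 and -0.70 and a mean of -1.23 ± 0.45. The S-locus glycoprotein-related gene AT3G12000 had -1.14, -2.16, -0.56 and -0.99 and a mean of -1.21 ± 0.68. In AT3G12000 and AT4G00910 set 2 was the lowest array, and in AT3G47480 sets 2 and 3 were both lower than sets 1 and 4.

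AT4G30650 encodes a small hydrophobic membrane protein of a family known from cold and salt responses, and had -1.21, -1.32, -0.55 and -1.07 with a mean of -1.04 ± 0.34. The nucleotide-binding leucine-rich repeat gene AT1G50180, of the intracellular immune receptors, had -0.85, -1.15, -0.45 and -0.65. AT1G04150, with C2 domains that bind calcium and lipids, had -0.88, -0.61, -0.82 and -0.41. Their means were -0.78 ± 0.30 and -0.68 ± 0.22, so of the 6 genes of this group these lay nearest to 0.

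Glycine-rich proteins, which are often structural parts of walls, were encoded by AT4G29020 and AT4G30450. AT4G29020 had -1.03, -1.09, -0.49 and -0.69 and AT4G30450 had -0.61, -0.75, -0.43 and -1.07, with means of -0.82 ± 0.28 and -0.72 ± 0.27.

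The other 17 genes had means from -1.65 to -0.51, with the same median, -0.88, as all 49. AT5G35480 had the second lowest mean of the 49 genes, -1.65 ± 0.84, from -0.66, -1.35, -2.59 and -2.02. AT3G59270 followed at -1.54 ± 0.74, from -0.90, -1.46, -2.58 and -1.20. In both, set 3 was lowest at -2.59 or -2.58 and set 1 was highest. AT3G49230 had -0.44, -2.84, -0.58 and -0.64, and its mean of -1.12 ± 1.14 rests on set 2. AT2G28570 had -1.03, -0.81, -1.35 and -1.29, all 4 close together, with a mean of -1.12 ± 0.25.

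Further down this set, AT4G29110 had -1.57, -1.31, -0.72 and -0.55 on sets 1 to 4, with a mean of -1.04 ± 0.48. AT1G44478 had -0.80, -1.04, -0.55 and -1.20, and AT5G44570 had -0.80, -0.51, -1.58 and -0.67. Their lowest arrays were set 1, set 4 and set 3 in turn, so the order of the arrays was not shared. AT5G53710 had -0.44, -1.52, -0.61 and -0.97, AT5G22960 had -0.87, -1.23, -0.40 and -0.72 and AT5G59360 had -0.51, -0.69, -0.73 and -0.92. Of these, AT5G22960 sat on the threshold on set 3 and AT5G59360 had the smallest spread, with an SD of 0.17. The last 6 genes, AT3G25130, AT3G56890, AT1G68430, AT2G42110, AT5G53720 and AT1G73120, had means of -0.66, -0.61, -0.60, -0.57, -0.55 and -0.51, and their SDs ran from 0.08 for AT1G73120 to 0.24 for AT3G56890.

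AT4G29030 was the 1 gene of the 49 measured by more than 2 probes. Its 5 probes had means of -1.48, -0.996, -0.95, -0.91 and -0.71, each below 0 on all 4 arrays. On set 3, 4 of the 5 were above -0.4, between -0.34 and -0.10, and GP008F10 alone, at -1.57, carried the gene's average past the threshold. Without GP008F10 and the 3 other probes whose names begin with GP, whose nature is not stated in the labels, AT4G29030 did not meet the rule.

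The arrays did not contribute alike. Sets 1 to 4 gave medians over the 49 genes of -0.87, -1.07, -0.61 and -0.67. The lowest of a gene's 4 values fell on set 2 in 26 of 49 genes, and on sets 1, 3 and 4 in 8, 8 and 7. The highest value fell on set 3 in 18 genes and on set 4 in 17, against 12 on set 1 and 2 on set 2. Over all named genes, 17.8%, 21.8%, 8.55% and 10.3% were at -0.4 or less on sets 1 to 4, so sets 3 and 4 were where fewest genes could meet the threshold. By channel order, 32 of the 49 genes were lower on the mean of sets 2 and 4 and 17 on that of sets 1 and 3, with medians of -0.93 and -0.77. These numbers describe genes chosen for being negative on every array and show nothing about the arrays beyond them.

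**Figure D2:**
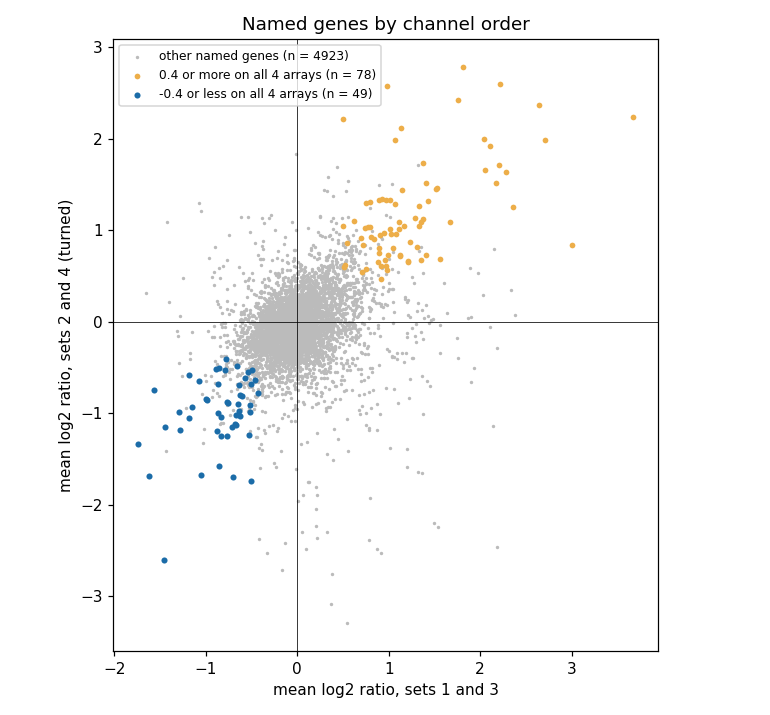
Mean log2 ratio of sets 1 and 3 (horizontal axis) against that of sets 2 and 4 after turning (vertical axis) for each named gene with 4 values. Blue points are the 49 genes, orange points the 78 genes at 0.4 or more on all 4 arrays and grey points the other named genes; the blue points fill the lower left corner because the rule puts them there.

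The same threshold on the positive side, 0.4 or more on all 4 arrays, was met by 78 genes, or 1.54% of those measured. With no array turned, 9 genes (0.178%) were at -0.4 or less and 7 (0.139%) at 0.4 or more. None of the 49 can be among those 9 by construction, since a value of -0.4 or less on a turned array is 0.4 or more on it as deposited. The list of members is thus tied to the turned orientation.

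In limma, fitted over 25415 features and adjusted over all of them, 0 of the 49 genes passed an adjusted p of 0.05. On the negative side 6 features, or 0.0236%, passed, but 0 of 5265 named genes did. The 6 features were thus not named genes and could not be members. On the positive side 50 of the 25415 features passed, 12 of them among the 5265 named genes. The adjusted p of the 49 ran from 0.0591 for AT2G28570 to 0.279 for AT3G49230. At an unadjusted p under 0.05 there were 49 of 49, against 7.08% of the named genes on the negative side. Nothing is read from these numbers, since the rule used the same contrast. The same holds for the calls under other settings. When features with 4 values alone were tested, limma called AT2G28570 (adjusted p = 0.0402), AT1G56710 (0.0415) and AT2G02750 (0.0439), among 26 negative features, or 0.107%. Quantile normalization called AT2G02750 (0.0455) as the 1 negative feature, or 0.00393%, and robust eBayes called AT2G28570 and AT1G56710 among 22, or 0.0866%.

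Each array in turn was read for the genes that the threshold chose on the other 3. With AT3G19710 counted again, of 73 genes at -0.4 or less on sets 2, 3 and 4, 50, or 68.5%, were at -0.4 or less on set 1 too, against 17.8% of all named genes. Chosen on sets 1, 3 and 4, 50 of 59 genes (84.7%) were at -0.4 or less on set 2, against 21.8%. The share on set 3 was 48.5% of 103 genes, against 8.55%, and on set 4 it was 51.5% of 97 genes, against 10.3%. The median on the array not used was -0.66, -1.01, -0.39 and -0.41 for sets 1 to 4. The sign alone was negative in 87.7%, 96.6%, 77.7% and 77.3% of the genes so chosen, against 52.0%, 53.4%, 48.7% and 56.0% of all named genes. With no array turned, fewer genes were chosen in this way, 26, 20, 13 and 13 for sets 1 to 4. Of these, 34.6%, 45%, 69.2% and 69.2% were at -0.4 or less on the array not used, against 17.8%, 15.8%, 8.55% and 11.1% of all named genes. The unturned share was thus the lower on sets 1 and 2 and the higher on sets 3 and 4. By definition, the genes that also passed on the array not used were the same 50 each time, or the same 9 with no array turned. The shares of genes past the threshold thus differ between arrays only through the number of genes chosen. They use the values the rule used and are no independent checks. These shares are descriptions, and whether arrays shared an RNA extract was not tested.

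**Figure D3:**
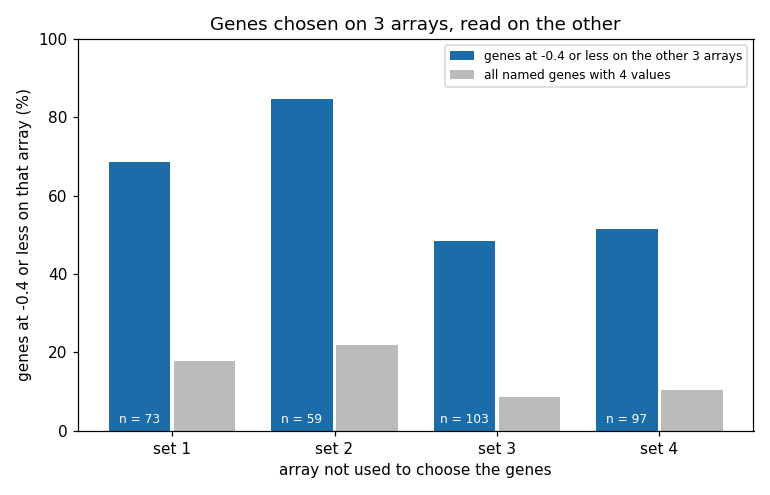
Share of genes at -0.4 or less on 1 array (vertical axis, percent) for genes chosen on the other 3 arrays (blue, number of genes in the bar) and for all named genes with 4 values (grey). The blue bars stand at 68.5%, 84.7%, 48.5% and 51.5% for sets 1 to 4 and the grey bars at 17.8%, 21.8%, 8.55% and 10.3%.

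Probes that the annotation gives to several genes took no part in the rule, and 18 of them list 1 of the 49 genes, 17 genes in all. Which of the listed genes such a probe detects cannot be told apart. Their mean log2 ratios had a median of 0.04, which was 0.0030 without replicate 1 and -0.050 without replicate 3, with 8 below 0, as the gene's own probes are, and 10 above. Over the 6984 probes of this kind with 4 values the median was -0.01, and 51.5% of the means were below 0. The probe shared by the pectate lyase gene AT1G67750 with AT5G63180, AT4G24780 and AT3G27400 was the 1 of the 18 at -0.4 or less on all 4 arrays, with -0.57, -0.78, -0.53 and -1.06. Among the 6984 probes, 0.959% were.

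3 other shared probes were below 0 on all 4 arrays, with means of -0.48 for that of AT1G44478, -0.32 for that of the helix-loop-helix gene AT1G27660 and -0.31 for that of SCPL43. The probe shared by AT4G30650 with AT4G30660 and AT4G30662 had a mean of -0.38 but 0.16 on set 3. On the other side, the probe that AT3G53100 shares with AT5G03810 and AT5G03820 had 0.33, 1.64, 0.74 and 0.44, a mean of 0.79 ± 0.60, while the gene's own probe had -0.59 ± 0.22. The shared probe of AT1G56710, the fourth lowest gene, had a mean of 0.07, and that of AT3G59270, the third lowest, had 0.20.

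**Figure D4:**
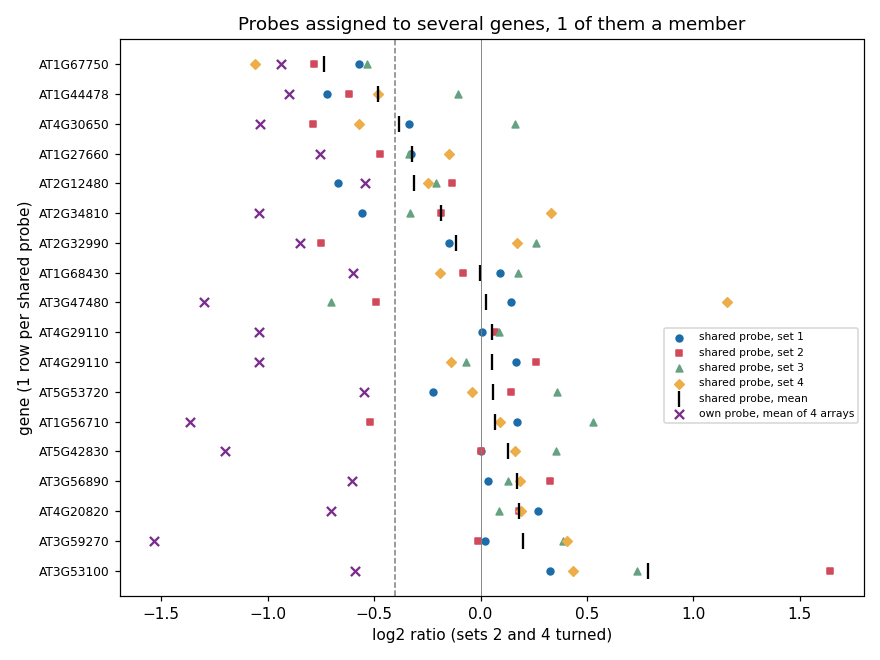
Log2 ratio (horizontal axis, sets 2 and 4 turned) on each array of the 18 probes assigned to several genes, 1 of them among the 49, with their mean (black tick) and the mean of that gene's own probes (purple cross). The crosses lie between -1.54 and -0.54 by the rule, while the ticks run from -0.74 for AT1G67750 to 0.79 for AT3G53100.

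The 49 genes lay on all 5 chromosomes, with 13, 7, 12, 9 and 8 on chromosomes 1 to 5. Their shares, 26.5%, 14.3%, 24.5%, 18.4% and 16.3%, stood beside 25.2%, 14.9%, 21.9%, 14.5% and 23.5% of all named genes. In the order of protein-coding genes of assembly TAIR10.1, 2 pairs were immediate neighbours, AT4G29020 with AT4G29030 and AT5G53710 with AT5G53720. All 5051 named genes held 1035 such pairs, counted whatever their values, so that number is no rate for pairs past the threshold. The 78 genes of the positive side held 0. The first pair had means of -0.82 ± 0.28 and -1.01 ± 0.36 and the second -0.88 ± 0.48 and -0.55 ± 0.16. AT4G29110 lay 12 genes beyond AT4G29030, and AT3G53100, AT3G53190 and AT3G53310 were 9 and 16 genes apart. Besides the genes of the 2 pairs, 15 named genes lay next to a member, and 0.990% of all named genes met the threshold. Of these 15, 9 had a mean below 0 and 6 above, with a median of -0.09. Among all named genes 55.2% had a mean below 0. The lowest of these neighbours was AT4G30460, beside the glycine-rich gene AT4G30450, at -0.50 ± 0.35. The gene length in that assembly had a median of 1750 bases, from 391 to 4670, against 1989 bases over all named genes.

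Of 15 gene families and pathways matched by symbol, the kinase and the ribosome lists had 0 measured genes. Among the other 13, the 1 that held a member was the flavonoid and phenylpropanoid list, through the symbol CHI, which here is the putative chitinase and no enzyme of that pathway. Transcription factors with a matching symbol had 31 measured genes and 0 members, with a median of 0.03. UDP-glycosyltransferases had 20 and 0, with a median of 0.08, and cytochrome P450 genes had 6 and 0, with a median of -0.04. Pentatricopeptide repeat symbols gave 10 measured genes and 0 members (median -0.11), since AT2G02750 and AT1G63070 carry no such symbol. Chromatin genes had 20 and 0, with a median of -0.16. The other lists, cell wall genes among them with a median of 0.20, had medians from -0.04 to 0.20 and 0 members each. The lists rest on symbols that 89.8% of the named genes lack, so a 0 says only that no member carried a matching symbol. Among all named genes 0.990% met the threshold, and a 0 in lists this short cannot be told apart from that share. GH9B8 has a symbol, but the cell wall list did not match it. In the glucosinolate list 1 gene met the threshold, AT3G19710, which the rule leaves out.

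The threshold divides genes with nearly equal values. The 5 genes just inside it were AT5G22960, SCPL43, AT3G56890, AT1G04150 and AT1G67750, whose highest values were -0.40 to -0.41. Just outside were AT1G03820, AT3G28570, AT1G61590, AT5G42450 and AT5G50150, with highest values of -0.40 to -0.39 and means of -0.88, -0.83, -0.55, -0.76 and -0.54. Within 0.05 of the threshold lay 16 genes inside and 13 outside.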

How the data were processed

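Both genotypes' inflorescence RNA was hybridised to each of 4 two-colour arrays. The deposited table holds a log2 ratio per spot and array, which the authors processed and normalized by a published method, per the labels; background correction, dyes, software and numerator were not stated there. The base follows from the values, which stop at plus and minus 6.64, the log2 of 100. The 2765 probe values at these limits were left out, and sets 2 and 4 were turned. No spot intensities were used, so depth per spot is unknown and the number of arrays limits precision. All value columns were matched to a sample, leaving 0 unmatched.

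Of 26933 rows, 459 empty or control rows were left out. The platform annotation gave 1 gene for 5784 probes, of which 5756 matched a locus of TAIR10.1, and several genes for 7497. All 49 members are named, as the rule for lists of at most 60 asks, with the 5 genes on either side of the threshold. The members and the lists were chosen with earlier results of these data known.

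Features with at least 3 values were tested for a mean different from 0 by limma (version 3.58.1, under R 4.3.3; lmFit, then eBayes; two-sided), and p-values were adjusted by the Benjamini-Hochberg method. The fit was tested on simulated data. Other work used Python 3.11.15 and pandas 2.3.3. Alternatives changed the threshold, centring, scaling, quantile normalization, orientation, limit values, probe summary, missing values, eBayes, array weights, a channel order term and the arrays used. A planned search of promoters and proteins was not run.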

Additional observations from a re-analysis of the deposited data

Results flagged for a closer look

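In the 49 genes and in their median per array, 50 series of 4 values, a single array's distance from the rest was measured with Dixon's ratio. It exceeded the critical value in 2 of them. About 1 in 20 does so by chance among unselected values. That rate does not hold here, since the genes were chosen to be at -0.4 or less on every array, so the ratio only describes them. For AT5G42830 the log2 ratio of -2.80 on set 2 stood against -0.71 to -0.60 on the others. For AT3G49230 the value was -2.84, also on set 2, against -0.64 to -0.44. Without set 2 the means of these genes were -0.67 and -0.55.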

How the results depend on the processing

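Of the 49 genes, 41 to 49 met the rule with centring, scaling, quantile normalization, limit values kept, medians of probes, every probe required or values on 3 arrays sufficing, and the count of 50 became 48 to 59. It was 85 at a threshold of -0.3, 22 at -0.5 and 1 at -1. With no array turned it was 9. The median of the 49 means is then 0.065 and 32 means are above 0, which is arithmetic: the mean becomes that of sets 1 and 3 set off against sets 2 and 4, and 32 genes were lower on the latter. Without 1 replicate the count was 59 to 103 (103 without replicate 3, 99 without replicate 4), by construction no lower than on 4 arrays, and the median ran from -0.93 to -0.74. The 6 negative features in limma became 1 with quantile normalization, 2 with scaling, 22 with robust eBayes and 26 with features on all 4 arrays, 0 with no array turned, with limit values kept or with a channel order term, and 0 to 11 without 1 replicate (0 without replicate 1 or 2, 4 without 3, 11 without 4). The 2 pairs of neighbours became 0 at -0.5. The median of the shared probes ran from -0.050 to 0.056 without 1 replicate, turning its sign without replicate 3. The settings for shared probes and neighbours, and the one without probes named GP (49 genes), were chosen after seeing the data. Each ratio already pairs both RNAs within an array, so no further block was fitted.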
